A study of Mus musculus with 158 samples.

Results

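Pool 7 was 1 of 19 lentiviral pools in a short hairpin RNA (shRNA) screen for growth of pancreatic cancer cells in the lung. Its members were the 52 targeting hairpins that the deposited tables assign to pool 7, out of 1000 targeting hairpins in the whole series. They were directed against 24 of the 285 targeted genes, with 1 hairpin for 8 genes, 2 for 8 genes, 3 for 4 genes and 4 for 4 genes. A further 8 control hairpins were present in every pool.

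The cells were PDA530 Met, a pancreatic adenocarcinoma line that the labels describe as coming from a liver metastasis. They were infected with the pool's virus at a multiplicity of infection of 0.3 and kept in puromycin, at 3 µg/ml, for 4 days. The cells were then sampled at once as a pellet (day 0), grown in a dish for 28 days (culture), or injected through the tail vein of 3 mice whose lungs were taken after 28 days (lungs). Every group therefore carried the same mixed pool, with no uninfected arm, and each group had 3 libraries, called A, B and C. A lung library held the DNA of all tumours of 1 mouse, so it gives no value for a single tumour, and cells delivered by the tail vein reach the lung without leaving a primary tumour. The culture libraries were labelled for pools 6 and 7 together. The sources used here give neither the strain nor the age of the mice, and they do not say whether the day 0 libraries came from separate pellets, so the spread between those libraries may be technical.

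An shRNA is processed by the cell's RNA interference machinery into a small RNA that lowers the messenger RNA it matches. Because the hairpin is integrated in the genome, sequencing it from genomic DNA counts the descendants of the cells that carry it. In a pooled screen a falling share of the reads means that the descendants of a hairpin's cells became a smaller part of the pool. A rising share means that they became a larger part. A hairpin can also lower genes other than its target, which is why several hairpins per gene are used. The degree of knockdown and the hairpins' own sequences were not analysed here.

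Shares in what follows are the percentage of a library's pool 7 targeting reads that came from 1 hairpin. The tests used log2 CPM (reads scaled to one common library total) with trimmed-mean (TMM) scaling, so that a log2 change is measured against the bulk of the pool and not against the total. Without TMM scaling, the median change over the 52 hairpins was -0.56 in lungs against day 0 and -0.58 in culture against day 0. With it these medians were -0.19 and -0.11, so a hairpin with an equal share in both groups has a fitted change above 0. A hairpin was called when its limma p, adjusted by the Benjamini-Hochberg method over all hairpins of all pools, was below 0.05. Every adjusted p given here is of that kind. A positive change means a higher level in the group named first.

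The 9 libraries held between 3667268 and 8581614 reads, of which 2831332 to 5883673 came from pool 7 hairpins. All 52 hairpins were read in each library and passed the filter on low reads. The scarcest one had 89 reads in culture A, a share of 0.00283% with an exact 95% binomial interval of 0.00227% to 0.00348%, which covers counting error only because the reads carried no molecular identifiers. Pool 6 hairpins made up 33.7% to 35.6% of the reads in the culture libraries and 0.105% to 0.429% in the others. Replicates were closest at day 0, where the highest share of a hairpin over its lowest had a median of 1.20, and the ratio reached 2 for 1 of 52 hairpins. This ratio had a median of 1.48 in culture and 2.20 in lungs, and it reached 2 for 16 and 29 hairpins.

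The pool became less even in both groups taken at 28 days. The effective number of hairpins, the exponential of the Shannon entropy of their shares, was 30.9, 31.7 and 32.9 at day 0. It was 19.8, 22.6 and 22.8 in culture and 23.2, 23.0 and 22.9 in lungs. Neither later group overlapped day 0, and the lungs lay just above culture. On the log2 scale lungs minus day 0 was -0.47, culture minus day 0 was -0.55 and lungs minus culture was 0.09. Each of the 3 had an exact two-sided permutation p of 0.1, which is the smallest that 3 against 3 libraries can give. Among the pools, pool 7 ranked 10 of 19 in evenness at day 0, 10 of 18 in culture and 7 of 17 in lungs.

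Different hairpins led the pool in the different groups. The hairpin against Gsto1, a glutathione transferase, was the most abundant in day 0 A and B, with 9.68% and 8.87%, and that against Ryr3, a calcium release channel, in day 0 C with 8.31%. In culture A and B the leading hairpin was TRCN0000114748 against Naip1, a sensor of bacterial proteins, with 17.2% and 14.4%, and in culture C it was Gsto1 with 13.6%. In lungs B and C it was TRCN0000012327 against the death receptor Tnfrsf10b, with 16.0% and 15.1%, and in lungs A it was Ryr3 with 12.4%. The 5 most abundant hairpins of a library together made up 33.9% to 36.5% at day 0, 49.7% to 56.1% in culture and 48.1% to 48.8% in lungs.

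In lungs against day 0, 22 of the 52 hairpins were called, 42.3% against 33.8% of the hairpins of all pools. Of these, 9 were higher and 13 lower, and the background shares over all pools were 14.7% higher and 19.1% lower. In culture against day 0, 37 were called, 71.2% against 60.6% over all pools, 17 higher and 20 lower against background shares of 28.8% and 31.9%. In lungs against culture, 18 were called, 34.6% against 24.9% over all pools, 9 higher and 9 lower against 11.6% and 13.3%. By the share called, pool 7 ranked 3 of 17, 5 of 18 and 4 of 17 pools. The first 2 comparisons share the day 0 libraries, so their values stand side by side and are not independent of each other. The edgeR quasi-likelihood test called 21, 36 and 15, all of them among the limma calls. In lungs against culture the limma fit of pool 7 had a median prior of 139 degrees of freedom, against a median of 7.44 over pools, and the smallest adjusted p there was 6.90e-14 in limma and 5.06e-07 in edgeR. The split by direction moved with the scaling: without TMM factors 7 were called higher and 17 lower in lungs, and 10 higher and 25 lower in culture. With the deposited scaling it was 12 higher and 23 lower in culture, and against the control reads 4 higher and 33 lower in culture and 21 higher and 4 lower in lungs against culture. The control reads of the culture libraries come from both pools, so this last scaling by construction lowers pool 7 hairpins in culture. The same applies to every value against the control reads given below that involves culture.

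Tnfrsf10b, the mouse receptor for the death ligand TRAIL, went from 11.1% to 11.6% of the pool at day 0 to 15.7% to 16.7% in culture and 14.8% to 23.1% in lungs for its 4 hairpins together. These 4 did not share 1 pattern. TRCN0000012327 held 6.14%, 6.40% and 5.97% at day 0, 2.36%, 2.77% and 2.09% in culture and 8.77%, 16.0% and 15.1% in lungs, so that every lung library lay above and every culture library below day 0. It rose 2.69-fold in lungs (log2 change 1.43, SE 0.22, limma adjusted p = 0.000884) and fell 1.86-fold in culture (log2 change -0.90, SE 0.13, limma adjusted p = 0.000375). TRCN0000012323 held 2.62%, 2.68% and 2.58% at day 0, 10.6%, 8.89% and 9.93% in culture and 2.33%, 2.61% and 2.68% in lungs. Its culture libraries stood apart from all others, and its rise there was 5.15-fold (log2 change 2.37, SE 0.12, limma adjusted p = 4.21e-07). Its lung shares overlapped day 0, with a fitted change of 0.32 with TMM scaling (limma adjusted p = 0.283). This change was -0.05 without TMM factors and 0.52 with DESeq2 size factors, so it moved both ways with the scaling.

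The other Tnfrsf10b hairpins were scarcer at the start. TRCN0000012325 held 1.41%, 1.32% and 1.45% at day 0, 1.95%, 2.53% and 2.54% in culture and 2.23%, 2.51% and 1.80% in lungs. Both later groups lay above day 0, and it rose 2.31-fold in culture (log2 change 1.21, SE 0.13, limma adjusted p = 4.66e-05) and 2.0-fold in lungs (log2 change 1.00, SE 0.27, limma adjusted p = 0.0173). TRCN0000012326 held 1.25%, 1.15% and 1.13% at day 0, 1.84%, 1.5% and 1.88% in culture and 1.5%, 1.99% and 0.852% in lungs. It rose in culture (log2 change 1.03, SE 0.14, limma adjusted p = 0.000279), while its lung libraries lay on both sides of day 0 and it was not called there (log2 change 0.58, SE 0.35, limma adjusted p = 0.218). In the main fit 2 of the 4 hairpins thus rose in lungs and none fell, where 14.7% of all hairpins rose and 19.1% fell. Such counts depend on the method, since the DESeq2 test called 16 hairpins of the pool higher in lungs against 9 in the main fit. In culture 3 rose and 1 fell, where 28.8% of all hairpins rose and 31.9% fell. Against the control reads, which in culture libraries come from both pools, the culture rises of TRCN0000012325 and TRCN0000012326 were not called (limma adjusted p = 0.129 and 0.539). For TRCN0000012325 and TRCN0000012326 the lung level was not called different from the culture level (limma adjusted p = 0.555 and 0.324).

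Pvrl2 encodes nectin-2, a cell adhesion protein that is also a ligand of receptors on lymphocytes. Its hairpin TRCN0000112530 held 3.29%, 3.49% and 3.89% at day 0, 2.78%, 3.63% and 3.35% in culture and 9.66%, 6.27% and 8.36% in lungs. The lung shares were the highest in every mouse and did not overlap either of the other groups. The rise was 2.90-fold against day 0 (log2 change 1.53, SE 0.22, limma adjusted p = 0.000618) and 2.26-fold against culture (log2 change 1.18, SE 0.24, limma adjusted p = 0.000102). TRCN0000112531 held 1.02%, 1.04% and 1.03% at day 0, 0.890%, 1.04% and 1.24% in culture and 1.37%, 1.15% and 0.850% in lungs, and it was not called in lungs against day 0 (log2 change 0.46, SE 0.31, limma adjusted p = 0.276). In culture both Pvrl2 hairpins were called higher, by 1.26-fold and 1.40-fold, but neither direction held under every scaling. The change of TRCN0000112530 in culture was 0.33 with TMM scaling, -0.13 without it and -0.58 against the control reads. That of TRCN0000112531 was 0.49 with it, 0.02 without it and -0.43 against the control reads. In culture libraries the control reads come from both pools, which by construction lowers these values. The culture call of TRCN0000112530 was lost without culture B, day 0 A or day 0 B (limma adjusted p = 0.148, 0.0787 and 0.114, each library left out in turn), and that of TRCN0000112531 without culture B or culture C (limma adjusted p = 0.0697 and 0.0856, each library left out in turn). Neither was called with the deposited scaling (limma adjusted p = 0.889 and 0.435), in a common fit of the 3 groups (0.230 and 0.223) or without TMM factors (0.354 and 0.948).

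Among the remaining surface proteins, Ptprd, a receptor tyrosine phosphatase, had 1 abundant hairpin and 1 scarce one. TRCN0000177643 held 2.67%, 2.51% and 2.43% at day 0, 1.04%, 1.17% and 1.56% in culture and 4.40%, 2.36% and 2.60% in lungs. The culture shares lay below both other groups, and the lung shares overlapped day 0. It fell in culture (log2 change -0.56, SE 0.15, limma adjusted p = 0.0112), which a common fit of the 3 groups did not call (limma adjusted p = 0.116), and was 2.22-fold higher in lungs than in culture (log2 change 1.15, SE 0.32, limma adjusted p = 0.00378). That last call was lost without lung A (limma adjusted p = 0.0539). TRCN0000178663, with shares of 0.0253% to 0.0621% over the 9 libraries, was not called in any comparison. The single hairpin against Fat1, a giant protocadherin, held 0.0129% to 0.0836% and was not called either.

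The chemokine genes of the pool were Ccl20, whose product attracts cells that carry the receptor CCR6, and Cxcl5, whose product attracts neutrophils. The Ccl20 hairpin held 1.00%, 0.926% and 0.772% at day 0 and 0.104%, 0.120% and 0.247% in culture, and it fell 4.43-fold there (log2 change -2.15, SE 0.35, limma adjusted p = 0.000821). In lungs it held 2.65%, 0.774% and 0.367%, with lungs A far above and lungs C far below the day 0 shares, and it was not called against day 0 (log2 change 0.39, SE 0.61, limma adjusted p = 0.642). It was 5.73-fold higher in lungs than in culture (log2 change 2.52, SE 0.73, limma adjusted p = 0.00631), a call that was lost without lung A (limma adjusted p = 0.0896). This difference was 3.26-fold without lung A and 9.25-fold without lung C.

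Both Cxcl5 hairpins were called in both comparisons with day 0, in opposite directions. TRCN0000054599 held 1.31%, 1.49% and 1.89% at day 0, 1.65%, 2.06% and 1.94% in culture and 1.5%, 3.60% and 2.33% in lungs, so that both later groups overlapped day 0 in share. It was called higher in culture (log2 change 0.75, SE 0.15, limma adjusted p = 0.00259; -0.16 against the control reads) and in lungs (log2 change 0.96, SE 0.33, limma adjusted p = 0.0445). The lung call was lost without day 0 A, lung B or lung C (limma adjusted p = 0.0810, 0.112 and 0.0785, each library left out in turn), and also without TMM factors (limma adjusted p = 0.197), with the deposited scaling (0.108) and in limma without robust estimation (0.0527). The culture call was lost without TMM factors (limma adjusted p = 0.177) and with the deposited scaling (0.0507). TRCN0000054601 held 2.34%, 2.56% and 2.43% at day 0, 0.728%, 0.807% and 0.818% in culture and 0.776%, 0.936% and 0.836% in lungs, with both later groups far below day 0. It fell 2.25-fold in culture (log2 change -1.17, SE 0.10, limma adjusted p = 1.03e-05) and 2.23-fold in lungs (log2 change -1.16, SE 0.25, limma adjusted p = 0.00538). The fall in lungs was not called without day 0 B or day 0 C (limma adjusted p = 0.0681 and 0.0502, each library left out in turn).

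Slc16a4 belongs to the monocarboxylate transporter family, and all 3 of its hairpins fell in culture. TRCN0000079712 held 1.94%, 2.16% and 2.47% at day 0, 0.670%, 0.883% and 0.876% in culture and 0.297%, 0.101% and 0.400% in lungs. Its lung shares were the lowest of the 3 groups, with no overlap, and it fell 7.39-fold against day 0 (log2 change -2.89, SE 0.50, limma adjusted p = 0.00189) and 3.83-fold against culture (log2 change -1.94, SE 0.66, limma adjusted p = 0.0216). The call against culture was lost without culture A, culture B or culture C (limma adjusted p = 0.0992, 0.0677 and 0.139, each library left out in turn), with changes of -1.97, -1.89 and -1.86. It was also lost against the control reads (limma adjusted p = 0.312) and with the deposited scaling (0.0538). Without lung B the fall against day 0 was 4.82-fold. Its fall in culture (log2 change -0.97, SE 0.12, limma adjusted p = 0.000180) was not called in a common fit of the 3 groups (limma adjusted p = 0.117). TRCN0000079708 held 1.00%, 0.929% and 0.818% at day 0, 0.146%, 0.114% and 0.0821% in culture and 0.243%, 0.0876% and 0.265% in lungs, and it fell 5.93-fold in culture (log2 change -2.57, SE 0.32, limma adjusted p = 0.000146) and 3.97-fold in lungs (log2 change -1.99, SE 0.46, limma adjusted p = 0.00730). TRCN0000079711 held 2.55%, 2.63% and 2.60% at day 0, 0.634%, 0.997% and 1.09% in culture and 1.24%, 2.41% and 0.791% in lungs. It fell 2.12-fold in culture (log2 change -1.08, SE 0.17, limma adjusted p = 0.000546). In lungs, with mouse B close to day 0, it was not called (log2 change -0.59, SE 0.39, limma adjusted p = 0.260). The 3 hairpins together went from 5.49% to 5.89% of the pool at day 0 to 1.45% to 2.05% in culture and 1.46% to 2.60% in lungs.

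Slc2a3, the glucose transporter GLUT3, did not have 1 direction. Its scarcest hairpin, TRCN0000079355, held 0.169%, 0.194% and 0.294% at day 0, 0.0381%, 0.0619% and 0.0522% in culture and 0.0151%, 0.0435% and 0.0492% in lungs. The later shares were all below day 0, and it fell 3.09-fold in culture (log2 change -1.63, SE 0.33, limma adjusted p = 0.00287) and 5.16-fold in lungs (log2 change -2.37, SE 0.53, limma adjusted p = 0.00624). Without lung A the fall in lungs was 3.33-fold. TRCN0000079354 held 1.05%, 1.24% and 1.29% at day 0 and 1.35%, 1.52% and 1.48% in culture, without overlap, and was called higher there (log2 change 0.75, SE 0.11, limma adjusted p = 0.000285; -0.16 against the control reads). That call was lost without TMM factors (limma adjusted p = 0.113). In lungs it held 0.940%, 1.24% and 2.59%, on both sides of day 0, and was not called (log2 change 0.65, SE 0.32, limma adjusted p = 0.136). TRCN0000079353 was not called in any comparison.

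Ryr3, a channel that releases calcium from internal stores, had 1 hairpin in the pool. It held 8.74%, 8.66% and 8.31% at day 0, 7.93%, 9.00% and 8.77% in culture and 12.4%, 12.6% and 10.1% in lungs. The lung shares were above every other library of this hairpin, and it rose 1.75-fold against day 0 (log2 change 0.81, SE 0.19, limma adjusted p = 0.00835). The lungs did not differ from culture beyond the threshold (log2 change 0.32, SE 0.21, limma adjusted p = 0.242). Its culture shares overlapped day 0, and its called change there was 0.47 with TMM scaling (limma adjusted p = 0.00210), -0.0027 without it and -0.45 against the control reads. It was not called with the deposited scaling (limma adjusted p = 0.186) or in a common fit of the 3 groups (0.0545).

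Naip1 codes for a sensor that binds parts of bacterial secretion systems and starts inflammasome signalling. Its 4 hairpins together held 15.8% to 17.2% of the pool at day 0, 24.2% to 32.6% in culture and 16.3% to 19.7% in lungs. TRCN0000114748 held 6.93%, 6.48% and 6.17% at day 0, 17.2%, 14.4% and 12.9% in culture and 8.89%, 4.63% and 5.41% in lungs. It rose 3.12-fold in culture (log2 change 1.64, SE 0.15, limma adjusted p = 2.78e-05) and was 2.65-fold lower in lungs than in culture (log2 change -1.41, SE 0.21, limma adjusted p = 1.35e-07), with lung shares on both sides of day 0. The second call was lost against the control reads (limma adjusted p = 0.203), which in culture libraries come from both pools. TRCN0000114749 held 3.52%, 3.29% and 3.04% at day 0, 7.54%, 5.82% and 5.86% in culture and 6.85%, 4.26% and 6.88% in lungs. Its later shares were all above day 0, and it rose 2.69-fold in culture (log2 change 1.43, SE 0.16, limma adjusted p = 8.37e-05) and 2.31-fold in lungs (log2 change 1.21, SE 0.23, limma adjusted p = 0.00279).

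TRCN0000114747 was the Naip1 hairpin that fell, with 2.05%, 2.26% and 2.64% at day 0, 1.33%, 1.54% and 1.44% in culture and 0.398%, 0.153% and 0.229% in lungs. Its lung shares were the lowest in every mouse, and it fell 7.43-fold against day 0 (log2 change -2.89, SE 0.44, limma adjusted p = 0.000878) and 6.48-fold against culture (log2 change -2.70, SE 0.50, limma adjusted p = 1.65e-05). In culture its shares also lay below day 0, but the fitted change was not called (log2 change -0.22, SE 0.13, limma adjusted p = 0.169). TRCN0000114746 held 4.68%, 4.45% and 3.93% at day 0, 6.56%, 5.72% and 4.02% in culture and 3.53%, 7.27% and 5.47% in lungs, and it was called higher in culture (log2 change 0.76, SE 0.21, limma adjusted p = 0.0114; -0.15 against the control reads). That call was lost without day 0 C (limma adjusted p = 0.0745) and without TMM factors (limma adjusted p = 0.0646).

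Grb10 is an adaptor that restrains signalling from the insulin and IGF1 receptors, and all 3 of its hairpins were called lower in culture. TRCN0000109915 held 2.30%, 2.29% and 2.13% at day 0, 0.450%, 0.649% and 0.435% in culture and 1.73%, 1.05% and 0.865% in lungs. It fell 3.22-fold in culture (log2 change -1.69, SE 0.17, limma adjusted p = 4.33e-05), was not called in lungs against day 0 (log2 change -0.58, SE 0.32, limma adjusted p = 0.182), and was 2.12-fold higher in lungs than in culture (log2 change 1.08, SE 0.41, limma adjusted p = 0.0377). That last call was not made by edgeR (adjusted p = 0.0592), with DESeq2 size factors (limma adjusted p = 0.0747) or in limma without robust estimation (0.0556), and was lost without culture A, culture C, lung A or lung B (limma adjusted p = 0.128, 0.194, 0.153 and 0.0719, each library left out in turn). TRCN0000109916 held 1.37%, 1.45% and 1.74% at day 0, 0.177%, 0.580% and 0.295% in culture and 0.569%, 0.249% and 0.332% in lungs. Both later groups lay below day 0, and it fell 3.50-fold in culture (log2 change -1.81, SE 0.42, limma adjusted p = 0.00583) and 3.24-fold in lungs (log2 change -1.70, SE 0.43, limma adjusted p = 0.0116). TRCN0000109917 held 5.05%, 5.17% and 5.29% at day 0, 2.89%, 3.29% and 3.32% in culture and 3.77%, 3.42% and 3.11% in lungs. Its small fitted fall in culture (log2 change -0.24, SE 0.09, limma adjusted p = 0.0441) had an adjusted p of 0.0896 in limma with the library letter as a block, and the call was also lost without culture B, day 0 A, day 0 B or day 0 C (limma adjusted p = 0.112, 0.0858, 0.136 and 0.0588, each library left out in turn). Nor was it made by edgeR (adjusted p = 0.0649), by DESeq2 (0.383), with DESeq2 size factors (limma adjusted p = 0.415) or in a common fit of the 3 groups (0.354).

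Pdcd6 encodes ALG-2, a calcium-binding protein of membrane traffic and cell death. TRCN0000104814 held 0.270%, 0.230% and 0.230% at day 0, 0.736%, 0.334% and 0.623% in culture and 0.908%, 1.05% and 0.992% in lungs, so that the groups formed 3 separate ranges with lungs the highest. It rose 5.22-fold in lungs (log2 change 2.38, SE 0.39, limma adjusted p = 0.00116) and 3.05-fold in culture (log2 change 1.61, SE 0.36, limma adjusted p = 0.00479). The culture rise was not called against the control reads (limma adjusted p = 0.117), which in culture libraries come from both pools. Lungs against culture was not called (log2 change 0.75, SE 0.42, limma adjusted p = 0.177). TRCN0000104811 held 0.694%, 0.769% and 0.916% at day 0, 0.194%, 0.0949% and 0.125% in culture and 0.0811%, 0.128% and 0.137% in lungs, and it fell 5.44-fold in lungs (log2 change -2.44, SE 0.37, limma adjusted p = 0.000847) and 4.31-fold in culture (log2 change -2.11, SE 0.34, limma adjusted p = 0.000821). The third, TRCN0000104813, never exceeded 0.0328% and was not called.

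A hairpin against Phlda2 rose strongly in lungs. Its target is a small protein with a pleckstrin homology domain whose gene is imprinted. TRCN0000055087 held 0.222%, 0.210% and 0.235% at day 0, 0.168%, 0.124% and 0.0675% in culture and 0.572%, 2.38% and 0.553% in lungs. Every lung share was above every other library, and mouse B was the highest of the 3 mice. It rose 5.29-fold against day 0 (log2 change 2.40, SE 0.56, limma adjusted p = 0.00817) and 7.45-fold against culture (log2 change 2.90, SE 0.73, limma adjusted p = 0.00165). Without lung B these rises were 3.33-fold and 4.45-fold, still called. The other Phlda2 hairpin, TRCN0000055086, held 0.0627%, 0.0718% and 0.155% in lungs against 0.169%, 0.200% and 0.225% at day 0 and was not called (log2 change -0.78, SE 0.43, limma adjusted p = 0.182). The hairpin against the related Phlda1 and those against Id4, an inhibitor of basic helix-loop-helix transcription factors, were scarce throughout and were not called.

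Kpnb1 and Ube2m code for parts of the general machinery of the cell, the nuclear import receptor importin beta and an enzyme that attaches the ubiquitin-like protein NEDD8. The Ube2m hairpin held 4.06%, 4.10% and 4.02% at day 0, 0.579%, 1.38% and 0.752% in culture and 1.36%, 1.85% and 1.56% in lungs. Both later groups lay far below day 0, and it fell 3.47-fold in culture (log2 change -1.80, SE 0.26, limma adjusted p = 0.000386) and 1.99-fold in lungs (log2 change -1.0, SE 0.24, limma adjusted p = 0.00817). TRCN0000112418 against Kpnb1 held 1.59%, 1.5% and 1.57% at day 0, 0.271%, 0.167% and 0.764% in culture and 0.549%, 0.120% and 0.597% in lungs, again with both later groups below day 0. It fell 3.44-fold in culture (log2 change -1.78, SE 0.51, limma adjusted p = 0.0153) and 3.54-fold in lungs (log2 change -1.82, SE 0.56, limma adjusted p = 0.0265). The culture call was lost without day 0 A or day 0 C (limma adjusted p = 0.0662 and 0.0692, each library left out in turn), and the lung call without day 0 A or lung A (limma adjusted p = 0.0512 and 0.0523, each library left out in turn). The lung call was also lost with DESeq2 size factors (limma adjusted p = 0.0968), the control reads (0.0816), the deposited scaling (0.0609) and in DESeq2 (0.0584). Without lung B its fall in lungs was 2.07-fold. The other Kpnb1 hairpin, TRCN0000112415, held 0.129%, 0.143% and 0.215% at day 0 and 0.0469%, 0.0477% and 0.0427% in culture and fell 2.50-fold there (log2 change -1.32, SE 0.34, limma adjusted p = 0.00896). In lungs it held 0.105%, 0.0478% and 0.184%, which overlapped day 0, and it was not called (log2 change -0.33, SE 0.51, limma adjusted p = 0.636).

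St6gal2 encodes a sialyltransferase, an enzyme that caps sugar chains with sialic acid. TRCN0000018813 held 2.76%, 2.81% and 2.86% at day 0, 0.518%, 0.526% and 0.494% in culture and 2.67%, 1.46% and 1.94% in lungs. The culture shares stood far below both other groups, and it fell 3.96-fold there (log2 change -1.98, SE 0.11, limma adjusted p = 5.22e-07). In lungs its share lay below day 0 in every mouse but the fitted change was not called (log2 change -0.15, SE 0.28, limma adjusted p = 0.703), and it was 3.51-fold higher in lungs than in culture (log2 change 1.81, SE 0.38, limma adjusted p = 0.000133). TRCN0000018816, with 0.432%, 0.491% and 0.411% at day 0 and 0.106%, 0.235% and 0.120% in culture, fell in culture as well (log2 change -1.15, SE 0.32, limma adjusted p = 0.0144), a call that was lost without day 0 A or day 0 B (limma adjusted p = 0.0523 and 0.0555, each library left out in turn) and in a common fit of the 3 groups (0.0771). TRCN0000018814 and TRCN0000018815 were not called in any comparison.

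Gsto1 and G0s2, an inhibitor of the lipase that breaks down stored triglyceride, each had 1 hairpin. The Gsto1 hairpin held 9.68%, 8.87% and 8.13% at day 0, 12.8%, 11.7% and 13.6% in culture and 8.44%, 5.98% and 8.37% in lungs. It rose 1.98-fold in culture (log2 change 0.98, SE 0.12, limma adjusted p = 0.000146), was not called in lungs against day 0 (log2 change 0.13, SE 0.19, limma adjusted p = 0.641) and was 1.84-fold lower in lungs than in culture (log2 change -0.88, SE 0.21, limma adjusted p = 0.000729; 0.05 against the control reads). The call against culture was lost without culture A or culture C (limma adjusted p = 0.0751 and 0.0635, each library left out in turn) and in DESeq2 (adjusted p = 0.0666). Against the control reads, which in culture libraries come from both pools, the rise in culture was 0.07 and not called (limma adjusted p = 0.618). The G0s2 hairpin held 2.68%, 2.84% and 3.12% at day 0, 2.65%, 2.77% and 2.63% in culture and 1.02%, 1.66% and 2.85% in lungs, and the 3 groups overlapped. Its called change in culture was 0.37 with TMM scaling (limma adjusted p = 0.0115), -0.10 without it and -0.54 against the control reads, and the call was lost without day 0 B (limma adjusted p = 0.0592). It was also lost with the deposited scaling (limma adjusted p = 0.694) and in a common fit of the 3 groups (0.251). Its call in lungs against culture (log2 change -0.79, SE 0.30, limma adjusted p = 0.0385) was not made by edgeR, had an adjusted p of 0.106 with the library letter as a block, turned to 0.13 against the control reads, and was lost without culture A, culture B, culture C, lung A or lung B (limma adjusted p = 0.170, 0.134, 0.127, 0.180 and 0.0992, each library left out in turn). It was lost too without TMM factors (limma adjusted p = 0.111), with the deposited scaling (0.102), in limma without robust estimation (0.0878) and in DESeq2 (0.211).

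The structural genes Gfap, an intermediate filament of astrocytes, and Myh2, a myosin of fast skeletal muscle, are best known from other tissues. The Gfap hairpin held 0.309%, 0.392% and 0.517% at day 0, 0.0983%, 0.114% and 0.136% in culture and 0.0826%, 0.122% and 0.186% in lungs. Both later groups lay below day 0, and it fell 2.49-fold in culture (log2 change -1.32, SE 0.27, limma adjusted p = 0.00292) and 2.50-fold in lungs (log2 change -1.32, SE 0.40, limma adjusted p = 0.0267). The lung call was lost without day 0 A, day 0 B, day 0 C, lung A or lung B (limma adjusted p = 0.0694, 0.150, 0.177, 0.0985 and 0.0608, each library left out in turn) and with DESeq2 size factors (0.0516). TRCN0000109390 against Myh2 held 0.732%, 0.907% and 1.07% at day 0, 1.52%, 2.51% and 2.36% in culture and 1.36%, 1.14% and 1.25% in lungs. Both later groups lay above day 0, and it rose 3.22-fold in culture (log2 change 1.69, SE 0.18, limma adjusted p = 6.94e-05). Its lung call (log2 change 0.85, SE 0.30, limma adjusted p = 0.0445) was not made by edgeR (edgeR adjusted p = 0.0633), had a limma adjusted p of 0.0936 with the library letter as a block, and was lost without day 0 A, day 0 B or day 0 C (limma adjusted p = 0.181, 0.0930 and 0.0797, each library left out in turn). The change without each of these libraries was 0.80, 0.97 and 1.06. The call was also lost without TMM factors (limma adjusted p = 0.162), with the deposited scaling (0.0919) and against the control reads (0.0767). The other Myh2 hairpin, TRCN0000109391, was not called in any comparison.

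Of the 16 genes with at least 2 hairpins, none had all of them called one way in lungs against day 0 or in lungs against culture. Over the genes of all pools with at least 2 hairpins in the same pool, 2.31% and 0.997% did so. In culture against day 0 there were 4 such genes, where the share over all pools was 11.9%, with Grb10, Kpnb1 and Slc16a4 lower and Pvrl2 higher. This count was not stable. Without day 0 A, a hairpin each of Grb10, Kpnb1 and Pvrl2 was no longer called (limma adjusted p = 0.0858, 0.0662 and 0.0787). A common fit of the 3 groups lost calls of Grb10, Pvrl2 and Slc16a4. Called or not, all hairpins of a gene had the same sign of change for 9 of the 16 genes in lungs against day 0, 6 in culture against day 0 and 3 in lungs against culture, where the shares over all pools were 35.0%, 40.9% and 37.2%. Hairpins of 1 gene were called in opposite directions for Cxcl5, Naip1 and Pdcd6 in lungs against day 0. The genes for which this was so included Cxcl5, Pdcd6, Slc2a3 and Tnfrsf10b in culture against day 0, and Tnfrsf10b in lungs against culture. Opposite calls within a gene made up 13.2%, 29.4% and 6.31% of the genes over all pools in the same 3 comparisons. Hairpins of 1 gene share their target and are not replicates of each other.

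Few of the scarce hairpins could be called. Of 7 hairpins with a mean share under 0.1% over the 9 libraries, 1 was called in lungs against day 0. In culture against day 0 limma and edgeR called 0 of these 7 (1 at an unadjusted p under 0.05), and in lungs against culture also 0 (0 at an unadjusted p under 0.05). The 6 that were not called in any comparison were against Fat1, Id4, Pdcd6, Phlda1 and Ptprd. The median standard error of the log2 change in lungs against day 0 was 0.61 for these 7 hairpins and 0.32 for the other 45, of which 21 were called. In culture against day 0 it was 0.69 and 0.17, and in lungs against culture 0.94 and 0.38.

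By gene class, the only member of the death receptor and apoptosis list in the pool was Tnfrsf10b, described above. The transporter list held the 6 hairpins of Slc16a4 and Slc2a3, of which 3 fell in lungs against day 0 with no other called, where 19.1% of all hairpins fell and 14.7% rose. The median change of the 6 was -1.29 against -0.13 over all hairpins of all pools. In culture 1 rose and 4 fell, where 28.8% of all hairpins rose and 31.9% fell, with a median of -1.03 against -0.10. The adhesion list held the Fat1 hairpin alone, and 8 lists had no member in the pool.

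The same genes were also targeted by other hairpins in other pools, 31 hairpins for 16 of the 24 genes, which were fitted with their own pools. In lungs against day 0, 3 of these 31 were called higher and 3 lower, 19.4%, which is below the 33.8% over all pools. The Ptprd hairpin TRCN0000342210 of pool 16 rose in lungs (log2 change 1.67, SE 0.22, limma adjusted p = 0.00421), as did TRCN0000452690 against Ryr3 (log2 change 0.87, SE 0.25, limma adjusted p = 0.0462) and TRCN0000331476 against Cxcl5 (log2 change 1.10, SE 0.32, limma adjusted p = 0.0466), both also of pool 16. The lung arm of pool 16 has 2 libraries, whose correlation of 0.712 was the lowest among the lung arms of all pools. The remaining Ryr3 hairpins outside pool 7 were not called in lungs, TRCN0000102883 (log2 change 0.32, SE 0.27, limma adjusted p = 0.389) and TRCN0000451135 (log2 change -1.29, SE 1.62, limma adjusted p = 0.579). The 3 that fell were directed against G0s2, Gfap and Myh2. In culture against day 0, 12 were called higher and 2 lower, 45.2% against 60.6% over all pools. A Ccl20 hairpin of pool 6, TRCN0000067706, read in the very same culture libraries, rose there (log2 change 0.69, SE 0.11, limma adjusted p = 0.000180), where the Ccl20 hairpin of pool 7 had fallen. TRCN0000317874 against Ube2m rose in culture (log2 change 1.13, SE 0.31, limma adjusted p = 0.00858), where the pool 7 hairpin fell, and TRCN0000444010 against Pvrl2 fell (log2 change -1.56, SE 0.48, limma adjusted p = 0.0144). The Ptprd hairpin of pool 16 also rose in culture (log2 change 2.34, SE 0.19, limma adjusted p = 8.00e-07), where TRCN0000177643 of pool 7 fell. Hairpins against Gfap and Myh2 went against pool 7 as well. Others rose as in pool 7, with log2 changes of 1.88 for TRCN0000366550 against Gsto1, 1.18 for TRCN0000102883 against Ryr3 and 1.72 for TRCN0000375051 against G0s2. The pool 7 rises of Ryr3 and G0s2 depended on the scaling. In lungs against culture 2 were called higher and 4 lower, 19.4% against 24.9% over all pools, among them lower values for TRCN0000094848 against Fat1 (log2 change -2.48, SE 0.28, limma adjusted p = 5.58e-08) and TRCN0000102883 against Ryr3 (log2 change -1.0, SE 0.30, limma adjusted p = 0.0124). The higher ones were TRCN0000452690 against Ryr3 (log2 change 1.34, SE 0.24, limma adjusted p = 0.00340) and TRCN0000428675 against Gfap (log2 change 1.16, SE 0.37, limma adjusted p = 0.0473).

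The control hairpins differed widely among themselves. Their levels are given as a percentage of the targeting reads of the library, of both pools in the culture libraries. Cdkn1b, a hairpin against an inhibitor of the cell cycle, held 6.87%, 7.19% and 7.85% at day 0, 6.58%, 8.37% and 7.43% in culture and 12.4%, 21.8% and 20.7% in lungs. On this denominator all lung values lay above the others, with a log2 change from day 0 of 1.28 (SE 0.27) against -0.15 to 3.96 in the other pools. In the culture libraries the control reads come from both pools. Setting them against pool 7 hairpins alone therefore raises every control in culture by construction, and such values settle no direction there. As a percentage of pool 7 reads alone the Cdkn1b hairpin held 12.4%, 16.0% and 13.5% in culture, above day 0 and overlapping lungs. Its change in culture was 0.03 with the first denominator and 0.93, 1.40 and 1.62 against pool 7 reads alone, their TMM scaling and the median pool 7 hairpin, and lungs against culture went from 1.26 to 0.35, 0.28 and 0.21. Non-targeting-shRNA-2 held 3.35%, 3.28% and 3.39% at day 0, 0.421%, 0.460% and 0.492% in culture and 0.174%, 0.154% and 0.231% in lungs. It thus had 3 separate ranges, with a log2 change of -4.19 (SE 0.17) in lungs and -2.87 (SE 0.07) in culture. Against pool 7 reads alone, their TMM scaling or the median pool 7 hairpin, its culture change was -1.97, -1.50 and -1.28. In the other pools, with the first denominator, this hairpin changed by -5.80 to -0.27 in lungs and -3.38 to -2.0 in culture.

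Non-targeting-shRNA-1, in contrast, held 12.5%, 12.7% and 12.0% at day 0, 18.2%, 18.3% and 17.4% in culture and 9.32%, 12.2% and 12.2% in lungs. Its log2 change in lungs was -0.15 against the total of targeting reads and 0.24 with their TMM scaling, and that of the GFP hairpin was -0.21 and 0.18, so neither had a settled direction in lungs. In culture Non-targeting-shRNA-1 changed by 0.54 with the first denominator and by 1.44, 1.91 and 2.13 with the other 3, and its lungs against culture value went from -0.69 to -1.59, -1.67 and -1.74. The hairpin against MUC1 changed by -2.90 in lungs and -3.24 in culture, and that against PIK3CA by -1.62 and -1.39. With the same 3 denominators the MUC1 value in culture was -2.34, -1.87 and -1.65. The PIK3CA value in culture turned to 0.20 when set against the median pool 7 hairpin, a value raised in the same way. Exact two-sided permutation tests of 3 against 3 libraries cannot go below 0.1, and with 24 tests of 8 controls and 3 comparisons the smallest Benjamini-Hochberg adjusted value was 0.141. The summed controls changed by -0.36 in lungs and -0.46 in culture against day 0 (exact p = 0.1 for both) and by 0.10 in lungs against culture (exact p = 0.4), directions that turned under other denominators.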

How the data were processed

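Each of the 9 libraries was made from genomic DNA by a 2-step PCR of the integrated hairpins, per the labels' protocols, without molecular identifiers. The values deposited by the authors are a normalised signal per hairpin. The submitters' processing notes name BWA 0.5.9. How reads were counted and scaled is not given in the sources used here. Each library's values were whole multiples of its smallest value (27241 of 27241 within 0.01 of a whole number, over all libraries), and dividing by that value gave reads. Design plans named edgeR for raw counts. Because the deposited unit was a signal, the main test was limma 3.58.1 (R 4.3.3, trend and robust) on log2(CPM + 1), with edgeR 4.0.16 TMM factors over a pool's targeting reads and the 2 groups compared in each fit. A hairpin needed a mean of at least 10 reads to be tested, and the threshold was an adjusted p of 0.05. In culture libraries only reads of the tested pool's hairpins entered the fit, and a library total of 2831332 to 5883673 pool 7 reads sets the counting precision.

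Alternatives were other scalings, pseudocounts, filters and tests (edgeR quasi-likelihood and DESeq2 1.42.0), a common fit of all groups, the library letter as a block, and leaving out each library. The letters come from the sample titles. Deviations from the group means correlated between same-lettered libraries by 0.51, 0.34 and 0.36 for day 0 and culture, and by 0.43, 0.19 and 0.35 for day 0 and lungs, so these letters may mark pairs. For culture and lungs these correlations were -0.02, 0.13 and 0.20, which gives less ground for pairs. The main fits did not use the letters, so every change, SE and p is unpaired unless the block is named. The block was run as an alternative in all comparisons.

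The members, the gene lists and the tests were chosen with earlier results of these data known. Named hairpins were, in each comparison, the 10 largest called rises and falls, every hairpin of a gene whose hairpins were all called one way, and those of Tnfrsf10b, Slc16a4 and the controls. Other members are given to complete the account. The fits were also run on simulated counts, drawn with a common spread for all hairpins and both groups of a pool. The groups of these data differed in spread, so that run does not show how the fits behave here. Of the 8 controls 2, and of the 24 genes 2, are not reported here, though their hairpins stay in the totals, fits and counts. P-values of the model rest on the spread between these libraries, combined for each hairpin with a variance estimated over the hairpins of its pool. Since the day 0 spread may be technical, they may not cover the spread between separate cell populations. All p-values of the model are from limma unless edgeR is named.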

Additional observations from a re-analysis of the deposited data

Results flagged for a closer look

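TRCN0000012327 against Tnfrsf10b was called in both later groups with opposite directions from day 0, higher in lungs and lower in culture. The difference between those groups was itself tested, and its log2 level was higher in lungs than in culture by 2.30 (SE 0.24). Its Benjamini-Hochberg adjusted p was 6.90e-14 in limma and 5.06e-07 in edgeR, and the limma fit had a median prior of 139 degrees of freedom against 7.44 over pools. All 3 lung libraries lay above all 3 culture libraries.

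Reads of hairpins from pools that the titles do not name were also present. Pool 5 hairpins made up 0.157%, 0.0576% and 0.122% of the reads in culture A, B and C and at most 0.00245% in a day 0 library. Pool 9 hairpins reached 0.0702% in culture C and 0.0604% in lungs C, and at most 0.0114% at day 0. Pool 8 hairpins, in contrast, were more abundant at day 0 than in culture, at 0.0402%, 0.0371% and 0.0506% in the day 0 libraries, 0.00556% to 0.0129% in culture and 0.00657% to 0.0402% in lungs. These reads did not enter any share or test.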

How the results depend on the processing

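The counts of called hairpins stayed within 1.5 times those reported under every alternative run. They spanned 17 to 28 in lungs against day 0, 29 to 41 in culture against day 0 and 12 to 25 in lungs against culture. Leaving out 1 library gave 17 to 25, 33 to 41 and 12 to 19, with the lowest count of the last, 12, without culture A or without culture C. In these fits 15 of 22, 30 of 37 and 10 of 18 called hairpins were called whichever library was left out. With the replicate block on the library letter the counts were 21, 38 and 17, and the paired analysis changed no call beside those named with their hairpins, Id4 TRCN0000071443, which it called in culture (adjusted p = 0.00309, limma), and 1 further hairpin it called there. Hairpins called by both limma and edgeR, an alternative chosen after seeing the data, numbered 21, 36 and 15. The DESeq2 test called 16 higher and 12 lower in lungs against day 0.

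Directions turned as follows, for called hairpins and for those of Tnfrsf10b and Slc16a4. Without TMM factors, Tnfrsf10b TRCN0000012323 in lungs against day 0 was -0.048 and Pvrl2 TRCN0000112530 in culture against day 0 was -0.13, with G0s2 at -0.10 and Ryr3 at -0.0027. Against the control reads, culture against day 0 was -0.58 for Pvrl2 TRCN0000112530 and -0.43 for TRCN0000112531, -0.54 for G0s2, -0.45 for Ryr3, -0.16 for Cxcl5 TRCN0000054599 and Slc2a3 TRCN0000079354, and -0.15 for Naip1 TRCN0000114746. On the same scale lungs against culture was 0.70 for Tnfrsf10b TRCN0000012325, 0.45 for TRCN0000012326, 0.047 for Gsto1 and 0.13 for G0s2. The control total of the culture libraries holds the controls of both pools, which by construction lowers pool 7 hairpins there. Slc16a4 TRCN0000079711 in lungs against culture ranged from -0.0098 to 0.88 when 1 library was left out, the lowest without lungs B. The summed controls were 0.19 in lungs against day 0 when set against the median targeting hairpin. In culture against day 0 they were 0.44 against pool 7 reads alone and 1.13 against the median hairpin, and in lungs against culture -0.80 and -0.95.

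The effective number kept its direction under each alternative run, but in lungs against culture the log2 difference was 0.02 without culture A. Replicate libraries of a group differed by far more than counting error, with a chi-square per degree of freedom of 305 to 8418.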

Other observations

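The hairpins that varied most between mice were TRCN0000104813 against Pdcd6, whose highest lung share was 7.95 times its lowest, the Ccl20 hairpin with a ratio of 7.20 and the Fat1 hairpin with 5.83. In culture the widest ratios were 11.4 and 8.40 for the Id4 hairpins TRCN0000071443 and TRCN0000071447. At day 0 the widest was 2.53, for TRCN0000071447. Apart from Ccl20, these hairpins had mean shares under 0.1%.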
